A study of Mus musculus with 7 samples.

Results

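The genes examined here build the zona pellucida, the glycoprotein coat of the oocyte, or act where sperm bind and fuse: Zp1, Zp2, Zp3, Astl, Izumo1r and Cd9. They were taken from the deposited oocyte transcripts by symbol, on the strand of the gene, and where a gene had several transcripts the one with the highest mean over the libraries was used. This gave 6 of the 33437 transcripts in the table, and all 6 passed the filter on low values, as did 18179 transcripts in all. Single germinal vesicle (GV) oocytes, the grown oocytes still arrested in the first meiotic prophase, came from C57BL6 females aged 21 days, and each library held the RNA of 1 oocyte. In both groups the females were Setd1b floxed/floxed. In the Setd1b cKO (4 libraries) the females were Gdf9-Cre positive, and in the Setd1b WT (3 libraries) they were Gdf9-Cre negative by the labels, while the methods of the study also count females heterozygous for the deletion with Gdf9-Cre as wild type. The Gdf9 promoter drives the recombinase in oocytes from early folliculogenesis onwards. The replicates are oocytes, the labels do not say which of them shared a mother, and p-values then measure the spread between these oocytes. SETD1B places trimethylation on lysine 4 of histone H3 (H3K4), a mark of active promoters.

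The zona is spun from filaments of ZP2 and ZP3 that ZP1 cross-links, all secreted by the growing oocyte. Sperm bind to ZP2. After fertilisation the cortical granules of the egg release ovastacin, the protease encoded by Astl, which cleaves ZP2 and so ends sperm binding. On the egg membrane JUNO, the product of Izumo1r, is held by a glycosylphosphatidylinositol (GPI) anchor and binds IZUMO1 on the sperm head, and the tetraspanin CD9 is needed for the membranes to fuse. The transcription factor FIGLA, with an E-protein partner, binds E-boxes (CANNTG) upstream of the zona genes.

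RefSeq promoters (GRCm38.p6, from 250 bases before to 50 bases after the start site) were found for 4 of the 6 genes, Zp3, Astl, Izumo1r and Cd9. They are shown because each holds, just upstream of its start, the E-box CAGGTG, which reads CACCTG on the other strand. Capitals mark that motif, and each sequence is written along the strand of its gene.
Zp3 (chr5:135979855-135980154, plus strand): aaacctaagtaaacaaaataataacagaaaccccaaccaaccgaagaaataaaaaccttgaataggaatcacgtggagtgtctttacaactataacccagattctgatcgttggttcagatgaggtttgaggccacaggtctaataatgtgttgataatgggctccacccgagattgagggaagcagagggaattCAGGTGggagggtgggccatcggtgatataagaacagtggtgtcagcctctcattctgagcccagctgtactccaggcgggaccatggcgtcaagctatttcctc
Astl (chr2:127341386-127341685, plus strand): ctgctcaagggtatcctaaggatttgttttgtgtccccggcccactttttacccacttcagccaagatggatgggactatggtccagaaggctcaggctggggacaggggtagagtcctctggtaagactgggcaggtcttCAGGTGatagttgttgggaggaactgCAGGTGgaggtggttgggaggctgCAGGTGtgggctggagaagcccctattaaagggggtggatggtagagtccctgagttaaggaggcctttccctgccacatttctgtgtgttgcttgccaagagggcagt
Izumo1r (chr9:14903718-14904017, minus strand): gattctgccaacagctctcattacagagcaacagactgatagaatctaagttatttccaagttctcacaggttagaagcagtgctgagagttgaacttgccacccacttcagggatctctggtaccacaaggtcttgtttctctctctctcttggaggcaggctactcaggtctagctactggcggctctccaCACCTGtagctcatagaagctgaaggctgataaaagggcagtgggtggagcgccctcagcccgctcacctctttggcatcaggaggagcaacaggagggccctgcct
Cd9 (chr6:125494711-125495010, minus strand): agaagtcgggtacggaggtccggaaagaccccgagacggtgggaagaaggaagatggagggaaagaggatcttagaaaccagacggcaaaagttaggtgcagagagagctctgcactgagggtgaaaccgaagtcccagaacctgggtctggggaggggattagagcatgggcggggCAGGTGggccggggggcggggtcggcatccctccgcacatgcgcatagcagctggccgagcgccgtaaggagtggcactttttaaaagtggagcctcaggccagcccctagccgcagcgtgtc

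The E-box CAGGTG or CACCTG was in 20.2% of 32851 mouse promoters of the same length. Counted from the start site, it began 55 bases upstream in Zp3, 57 in Izumo1r and 73 in Cd9. In Astl it began 109, 83 and 59 bases upstream, and 0.365% of all promoters held 3 or more copies. Any E-box (CANNTG) was in 72.3% of promoters, and Zp3 held 4, Astl 3, Cd9 3 and Izumo1r 1, the CAGGTG boxes included. TATAAA, searched on both strands, was in 13.6% of promoters and in none of those printed above. These are matches of letters and not measured binding sites.

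RefSeq lists another Astl promoter, with its start site at 127338639 on chromosome 2, which held no CANNTG. The oocyte transcript of Astl starts at 127341602, 34 bases before the start site of the promoter printed above and 2963 bases after the other one. The oocyte transcripts of Cd9 and Izumo1r start 55 and 165 bases upstream of their RefSeq start sites, and that of Zp3 starts 1337 bases upstream. CpG dinucleotides numbered 1 in the Astl promoter, 3 in Izumo1r, 7 in Zp3 and 18 in Cd9, against a median of 7 over all promoters.

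The libraries held 8582493 to 12972366 mapped reads. The values are RPM (reads per transcript relative to the library's mapped reads), and they give a share of the library and not the number of molecules in the oocyte. Of the mapped reads, 13.2% to 16.4% lay outside the transcripts in the cKO and 9.57% to 9.90% in the WT. Setd1b itself was at 8.31, 16.7, 12.8 and 2.68 RPM in cKO replicates 1 to 4 and at 17.7, 16.3 and 8.61 RPM in WT replicates 1 to 3. These ranges overlap (limma adjusted p = 0.533), and as the transcript extends beyond the floxed segment they do not check the labels. The 8 oocyte markers summed to 16918 to 20820 RPM in the cKO and 21781 to 24914 RPM in the WT. Of 20 granulosa cell markers 19 were in the table, and they summed to 79.7 to 99.4 RPM in the cKO and 51.0 to 71.5 RPM in the WT, most of it Nr5a2 and Cyp19a1. The defining granulosa markers Amh and Foxl2 were at 0 in all WT libraries and in 3 of 4 cKO libraries each, with 0.174 and 0.165 RPM in the remaining ones, and Krt18 was at 0 in every library. Other markers were not at 0. Inha, which like Amh, Foxl2, Krt18 and Hsd3b1 was named outside the rule and after the values were seen, was at 7.03, 11.4, 13.2 and 0.583 RPM in cKO replicates 1 to 4 and at 0.810, 4.32 and 0 RPM in WT replicates 1 to 3, and Hsd3b1 reached 5.02 and 7.14 RPM in cKO replicates 2 and 3. Without the filter on low values 17 of the 19 markers had log2 fold changes above 0, where the median of all 33437 transcripts was 0.03. The share of all transcripts above 0 was not counted in that fit. The part of granulosa RNA in the results was not tested. Replicate 4 of the cKO and replicate 3 of the WT stood apart from the other 5 libraries on the second principal component (31.0% of the variance), and the results of the 6 genes are given with and without them.

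None of the 6 genes passed the test for a difference between Setd1b cKO and WT, and the largest change was that of Astl, at 46.1% of its WT mean. The log2 fold changes of all 6 were below 0 with the deposited scaling, from -1.08 for Astl to -0.13 for Zp2, with a median of -0.35 that ran from -0.53 (without WT replicate 3) to -0.32 (without cKO replicate 4) when 1 library was left out. With quantile normalisation 4 of 6 were below 0. Over all transcripts tested the median log2 fold change was 0.12 and 39.7% were below 0, and over the 2682 transcripts with a mean of at least 64 RPM the values were 0.00 and 49.5%. With limma on log2(RPM + 1) and Benjamini-Hochberg adjustment over 18179 transcripts, 0 of the 6 genes had an adjusted p under 0.05, where 2.19% of transcripts were called lower and 3.96% higher (4.21% lower among those with a mean of at least 64 RPM). With a change over 2-fold required in addition, these shares were 1.95% and 3.76% by limma, where the study used these cut-offs with another test, DESeq2. Of all calls 35.7% were lower, and with the libraries centred on the median transcript, quantile normalised or scaled by the median of ratios 55.7%, 51.6% and 51.0% were. At an unadjusted p under 0.05 there was 1 of 6, Astl, against 21.7% of all transcripts. With voom, the count model of limma, on the reads recovered from the values, 0 of 6 were called and 1 had an unadjusted p under 0.05. In 3 of 6 genes, Zp3, Astl and Izumo1r, every cKO library lay below every WT library, which was so for 7.14% of all transcripts tested and for 11.3% of those with a mean of at least 64 RPM.

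**Figure D1:**
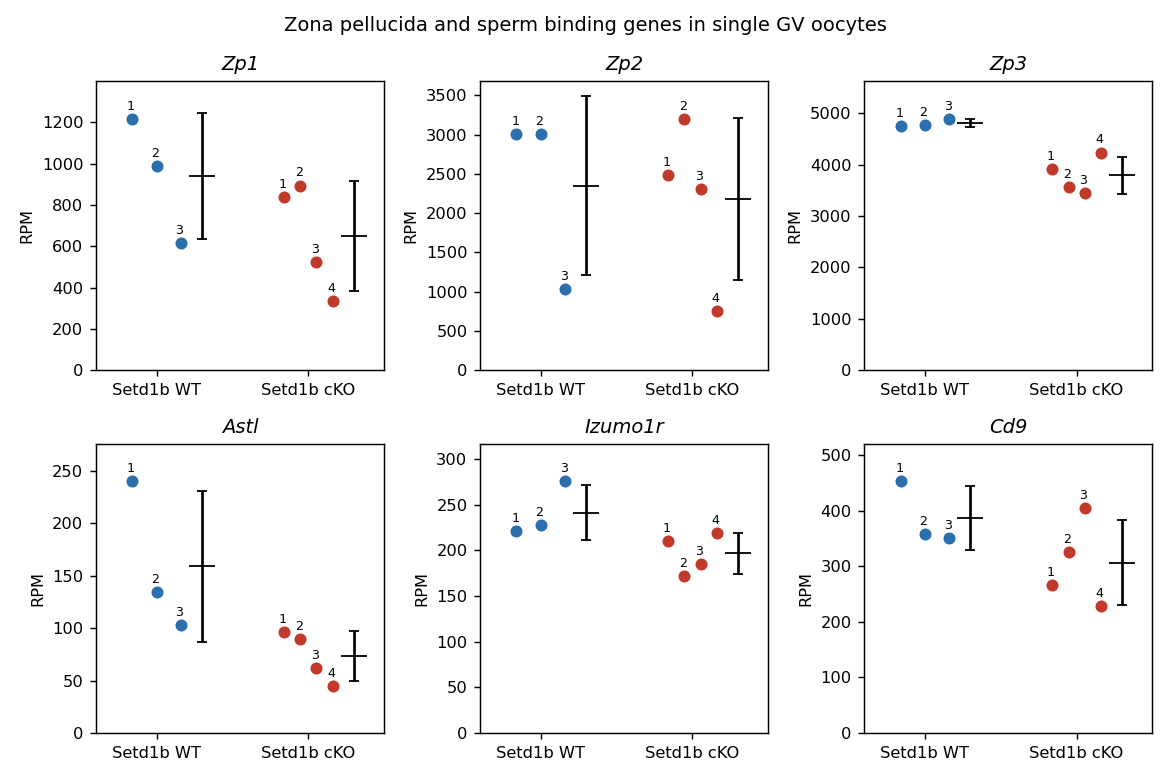
RPM of each gene (vertical axes, from 0) in the 3 Setd1b WT (blue) and 4 Setd1b cKO (red) oocytes, with the replicate number beside each point and the mean ± SD at the right of each group. The genotypes do not overlap in Zp3, Astl and Izumo1r, and WT replicate 3 and cKO replicate 4 are the lowest of their groups in Zp1, Zp2, Astl and Cd9.

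The zona genes were among the most abundant transcripts of the oocyte. By mean RPM, Zp3 ranked 8th, Zp2 24th and Zp1 120th of 33437 transcripts, Cd9 387th, Izumo1r 730th and Astl 1606th. To compare genes, levels were divided by the annotated exon length. Per kb, the level in the WT was 3629 ± 59.5 RPM for Zp3, 862 ± 418 for Zp2, 474 ± 153 for Zp1, 189 ± 27.9 for Cd9, 104 ± 12.8 for Izumo1r and 62.1 ± 28.1 for Astl (SD, n = 3). The order was the same in the cKO, with 2865 ± 271 RPM per kb for Zp3, 802 ± 379 for Zp2, 328 ± 133 for Zp1, 150 ± 37.6 for Cd9, 84.8 ± 9.49 for Izumo1r and 28.6 ± 9.28 for Astl (SD, n = 4). Among neighbours in that order, the ranges over libraries overlapped between Zp2 and Zp1 in both genotypes and between Zp1 and Cd9 in the cKO. When the longest annotated transcript was used as the length, Izumo1r came to 187 and Cd9 to 315 RPM per kb in the WT, and the order was kept.

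Zp1 (chromosome 19, 10914289 to 10921416, minus strand) encodes the cross-linking protein. It was at 840, 894, 526 and 336 RPM in cKO replicates 1 to 4 and at 1217, 987 and 615 RPM in WT replicates 1 to 3. The 2 highest cKO oocytes lay between the WT oocytes, so the genotypes overlapped. The means were 649 ± 264 RPM (SD, n = 4) and 940 ± 304 RPM (SD, n = 3), or -0.58 on the log2 scale (95% interval -1.39 to 0.23, limma adjusted p = 0.405). Without cKO replicate 4 it was -0.30, and without WT replicate 3 it was -0.86. Without both of these libraries it was -0.58 (limma adjusted p = 0.122). The interval reaches past 2-fold lower.

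Zp2 (chromosome 7, 120126532 to 120145290, minus strand) encodes the ligand for sperm that ovastacin cleaves. It was at 2480, 3201, 2307 and 751 RPM in cKO replicates 1 to 4 and at 3006, 3007 and 1033 RPM in WT replicates 1 to 3. The 1 low oocyte in each genotype lay far below the others, and the highest value of all was that of a cKO oocyte. The log2 fold change was -0.13 (95% interval -1.28 to 1.02, limma adjusted p = 0.923), and its direction turned when single libraries were left out, to 0.32 without cKO replicate 4, 0.13 without WT replicate 1 and 0.13 without WT replicate 2. Without both cKO replicate 4 and WT replicate 3 it was -0.19 (limma adjusted p = 0.590). Its SD within genotypes, 0.91 on the log2 scale, was larger than that of 97.6% of the transcripts with a mean of at least 64 RPM, whose median was 0.35. A difference of 2-fold in either direction lies within the interval, so 7 oocytes do not resolve one.

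Zp3 (chromosome 5, 135978768 to 135990412, plus strand) encodes the partner of ZP2 in the filaments. It was at 3919, 3567, 3441 and 4234 RPM in cKO replicates 1 to 4 and at 4743, 4769 and 4891 RPM in WT replicates 1 to 3. All cKO oocytes lay below all WT oocytes, by a small margin against the level. The means were 3790 ± 358 RPM (SD, n = 4) and 4801 ± 78.7 RPM (SD, n = 3), and the cKO mean was 78.9% of the WT mean. The log2 fold change was -0.35 (95% interval -0.85 to 0.16, limma adjusted p = 0.433). Without cKO replicate 4 and WT replicate 3 it was -0.39 (limma adjusted p = 0.193). With quantile normalisation it was 0.20, so even its direction depended on the scaling. The SD of Zp3 within genotypes, 0.11 on the log2 scale, was smaller than that of all but 2.57% of the transcripts with a mean of at least 64 RPM.

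Astl (chromosome 2, 127341602 to 127357650, plus strand) encodes ovastacin. It was at 96.1, 89.5, 62.3 and 45.2 RPM in cKO replicates 1 to 4 and at 240, 135 and 103 RPM in WT replicates 1 to 3. Every cKO oocyte lay below every WT oocyte, but the highest cKO and the lowest WT value were close. The means were 73.3 ± 23.8 RPM (SD, n = 4) and 159 ± 71.9 RPM (SD, n = 3), a log2 fold change of -1.08 (95% interval -1.83 to -0.33). The unadjusted p in limma was 0.00922 and the adjusted p 0.0909, so the difference was not past the threshold. Without cKO replicate 4 and WT replicate 3 the log2 fold change was -1.14 with a limma adjusted p of 0.0113. With single libraries left out it ran from -1.34 (limma adjusted p = 0.0556, without WT replicate 3) to -0.73 (adjusted p = 0.305, without WT replicate 1, the library with the highest Astl level). The values rest on 388 to 2963 reads per library.

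Izumo1r (chromosome 9, 14900023 to 14903932, minus strand) encodes JUNO. It was at 211, 172, 185 and 219 RPM in cKO replicates 1 to 4 and at 221, 227 and 275 RPM in WT replicates 1 to 3. The genotypes did not overlap, though cKO replicate 4 and WT replicate 1 were nearly equal. The log2 fold change was -0.29 (95% interval -0.73 to 0.15, limma adjusted p = 0.444). The interval does not reach 2-fold in either direction. Leaving out cKO replicate 4 and WT replicate 3 gave -0.25 (limma adjusted p = 0.428).

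Cd9 (chromosome 6, 125460258 to 125494815, minus strand) encodes the tetraspanin. It was at 267, 327, 404 and 228 RPM in cKO replicates 1 to 4 and at 453, 358 and 350 RPM in WT replicates 1 to 3. One cKO oocyte, replicate 3, was above 2 of the WT oocytes, so the genotypes overlapped. The log2 fold change was -0.36 (95% interval -0.89 to 0.18, limma adjusted p = 0.441). This interval stays within 2-fold, but it reached past 2-fold lower under other scalings and with some libraries left out, to -1.08 without WT replicate 2. The log2 fold change was -0.30 without cKO replicate 4 and WT replicate 3 (limma adjusted p = 0.405).

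**Figure D2:**
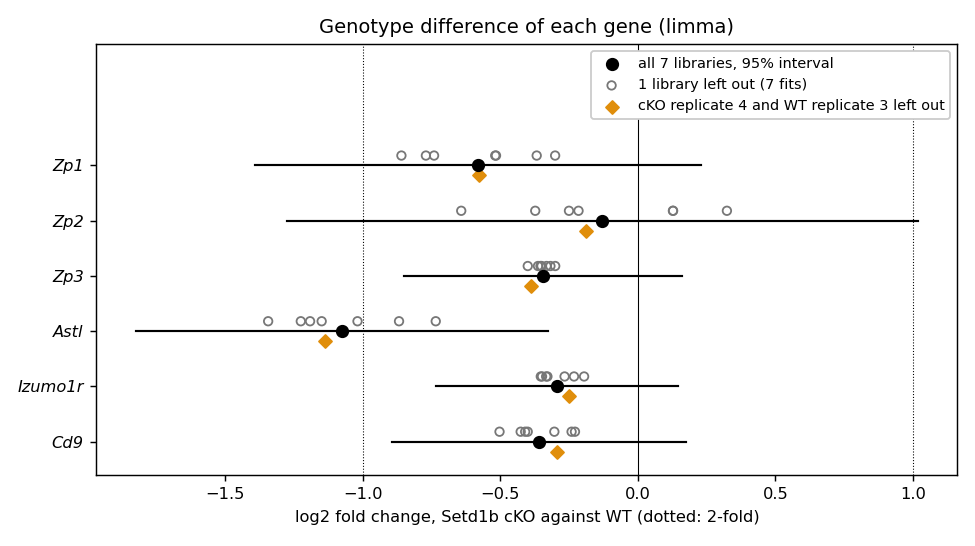
Log2 fold change of each gene in Setd1b cKO against WT oocytes (horizontal axis). Black points and lines give the limma estimate and its 95% interval, open circles the 7 fits with 1 library left out, and diamonds the fit without cKO replicate 4 and WT replicate 3. The interval of Astl alone stays below 0, and open circles lie on both sides of 0 for Zp2 alone.

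Whether the genes changed relative to each other was asked with ratios within a library, which do not depend on the library total, though quantile normalisation can alter them. For the 15 pairs, two-sided exact permutation tests could not reach 0.05, since with 4 oocytes against 3 the smallest raw p they allow is 0.0571, and they do not show that the ratios were alike. The smallest Benjamini-Hochberg adjusted p was 0.571. The smallest raw p of 0.0571 was reached by 1 pair, Zp1 to Astl. Its log2 ratio averaged 3.10 ± 0.18 over the cKO oocytes (SD, n = 4), against 2.60 ± 0.27 over the WT oocytes (SD, n = 3), and every cKO oocyte lay above every WT oocyte. Mean log2 ratios of Zp2, Zp3, Izumo1r and Cd9 to Astl were also higher in the cKO, the differences running from 0.73 to 0.96 with adjusted p of 0.571 to 0.686 in these exact permutation tests, and those genotypes overlapped. With 1 library left out, the difference ran from 0.39 to 1.02 for Zp3 to Astl, and from -1.16 to -0.39 for Astl to Izumo1r, against -0.79 with all libraries.

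The log2 ratio of Zp2 to Zp3 was -0.66, -0.16, -0.58 and -2.50 in cKO replicates 1 to 4 and -0.66, -0.67 and -2.24 in WT replicates 1 to 3. In 5 oocytes it was thus between -0.67 and -0.16, and in 1 oocyte of each genotype it was far lower. By genotype it averaged -0.97 ± 1.04 (SD, n = 4) against -1.19 ± 0.91 (SD, n = 3), with an exact permutation p of 0.743. The log2 ratio of Zp3 to Izumo1r had a smaller spread, with 4.27 ± 0.07 over the cKO oocytes (SD, n = 4) against 4.32 ± 0.15 over the WT oocytes (SD, n = 3), and an exact permutation p of 0.629.

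These are the libraries that stood apart on the second principal component. Against the mean of the other libraries of their genotype, Zp2 was lower by 1.81 on the log2 scale in cKO replicate 4 and by 1.54 in WT replicate 3. Among 2682 transcripts with a mean of at least 64 RPM, 2.39% had a lower value than Zp2 in the first comparison and 1.75% in the second. Zp1 had differences of -1.12 and -0.83, Astl of -0.83 and -0.80, and Cd9 of -0.52 and -0.20. Izumo1r had differences of 0.22 and 0.30, and Zp3 of 0.22 and 0.04. Of the 2682 transcripts, 45.7% were lower in both comparisons and 42.3% higher in both, so most shared a sign. Both libraries also differed from the others by class of transcript length. Transcripts of genes with a longest annotated isoform under 1.5 kb (500 transcripts) had median differences of 0.57 and 0.58, those of 1.5 to 3 kb (661 transcripts) had -0.33 and -0.24, and those over 3 kb (917 transcripts) had -0.20 and -0.17, so the medians did not fall steadily with length. By the same measure of length Zp2, Astl and Zp1 are 2.39, 2.38 and 1.96 kb long, and Zp3, Izumo1r and Cd9 are 1.32, 1.29 and 1.23 kb long. The part of length in these differences was not tested, and Cd9 has the opposite sign to the median of its length class.

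**Figure D3:**
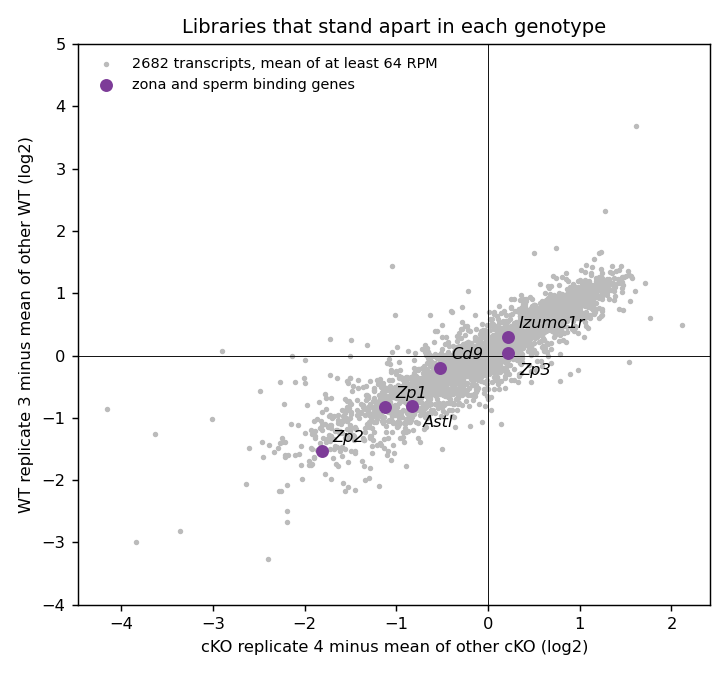
Difference of cKO replicate 4 from the mean of the other cKO libraries (horizontal axis, log2) against that of WT replicate 3 from the other WT libraries (vertical axis, log2), for 2682 transcripts with a mean of at least 64 RPM (grey) and the 6 genes (purple). Zp2, Zp1, Astl and Cd9 lie below 0 in both, with Zp2 near the low end of the cloud, and Zp3 and Izumo1r lie just above 0 in both. Of the 2682 transcripts, 45.7% lie below 0 in both and 42.3% above 0 in both.

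The transcripts most like the mean of the zona genes over the 7 libraries were low in the oocytes in which Zp1 and Zp2 were low, where Zp3 was not. Among 5030 named transcripts with a mean of at least 16 RPM, those most like the mean profile of Zp1, Zp2 and Zp3 were Paip2, Srp54a, Slc24a5, Kif20b and Nfyc, with Pearson's r from 0.989 to 0.996 over 7 libraries that share these extremes. In Srp54a, for example, a subunit of the signal recognition particle, the level was 298 RPM in cKO replicate 4 and 430 RPM in WT replicate 3, and from 499 to 748 RPM in the other 5 libraries. The list is a description of likeness among many candidates.

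Other transcripts at these loci were minor. A transcript of 200 bases on the opposite strand lies wholly within that of Zp2 and was at 2.22 to 7.52 RPM. One of 817 bases opposite to Astl overlaps its end by 58 bases and was at 1.68 to 4.01 RPM in the cKO and 5.16 to 5.71 RPM in the WT. Ssc4d, on the strand opposite to Zp3, overlaps the first 1317 bases of its oocyte transcript and was at 7.77 to 15.2 RPM. The use of strand in counting is not given in the sources used here, and reads in the overlaps could belong to either gene. Izumo1r had 3 more transcripts on its strand, of which the largest was at 4.05 to 11.4 RPM, and summing all rows of the gene gave a log2 fold change of -0.26.

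The genes that act with these 6 were examined as 8 lists with 117 genes, of which 106 were in the table and 80 passed the filter on low values. In limma 0 of the 80 had an adjusted p under 0.05, where 2.19% of all transcripts were called lower and 3.96% higher. An unadjusted p under 0.05 was found for 13 of the 80, beside 21.7% of all transcripts, and the difference of these shares was not tested. With 1 library left out, the median of the lists of GPI anchor synthesis, granulosa cell markers and oocyte markers kept its sign, and that of the other 5 lists changed sign with at least 1 library. Factors that drive zona gene transcription (10 tested) had 4 log2 fold changes below 0 and 6 above, with a median of 0.06 that turned to -0.10 with the libraries centred on the median transcript. Nobox, an oocyte homeobox factor, averaged 617 ± 271 RPM over the cKO oocytes (SD, n = 4), against 633 ± 207 RPM over the WT oocytes (SD, n = 3). Figla, named outside the rule and after its values were seen, averaged 46.3 ± 9.72 RPM (SD, n = 4) against 60.3 ± 9.04 RPM (SD, n = 3), or -0.38 on the log2 scale (limma adjusted p = 0.374). For Gtf2a1l, a germ cell relative of the basal factor TFIIA, the log2 fold change was 0.07 (limma adjusted p = 0.922).

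Taf4b, a subunit of TFIID that is enriched in the ovary, was chosen after its values were seen. It averaged 23.5 ± 4.43 RPM over the cKO oocytes (SD, n = 4), against 11.3 ± 3.60 RPM over the WT oocytes (SD, n = 3), or 1.03 on the log2 scale (limma adjusted p = 0.0578). Without cKO replicate 4 its log2 fold change was 1.11 (limma adjusted p = 0.0389), and without that library and WT replicate 3 it was 0.84 (adjusted p = 0.0498). The change furthest from 0 in this list was in the other direction, that of Tbpl2, an oocyte relative of the TATA-binding protein that was likewise chosen after its values were seen, at -1.10 on the log2 scale (95% interval -1.97 to -0.24, limma adjusted p = 0.126).

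Of the membrane partners of CD9 and JUNO, 7 of 12 passed the filter, with 3 log2 fold changes below 0, 4 above and a median of 0.05, or -0.10 after centring. Cd81, a tetraspanin related to Cd9 that was named outside the rule and after its values were seen, was under the filter, with 0.593 ± 0.444 RPM over the cKO oocytes (SD, n = 4) against 0.971 ± 0.359 RPM over the WT oocytes (SD, n = 3). Itga9, an integrin subunit, averaged 67.7 ± 31.3 RPM over the cKO oocytes (SD, n = 4), against 177 ± 77.6 RPM over the WT oocytes (SD, n = 3), or -1.45 on the log2 scale (limma adjusted p = 0.0972). For Cd55, a GPI-anchored complement regulator, the log2 fold change was -0.69 (limma adjusted p = 0.129). Without cKO replicate 4 and WT replicate 3, Itga9 (limma adjusted p = 0.0011) and Cd55 (0.0108) both passed the threshold and were lower in the cKO.

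Enzymes of zona glycosylation and processing (10 tested) had 9 log2 fold changes below 0 and 1 above, with a median of -0.11, and 6 below 0 and 4 above when scaled to the reads within transcripts. Without WT replicate 2 the list had 4 below 0 and 6 above with a median of 0.02, and without WT replicate 3 it had 10 below 0 with a median of -0.36. Canx and Calr, the chaperones of newly made glycoproteins, had log2 fold changes of -0.15 and -0.56 (limma adjusted p = 0.892 and 0.376). Genes of cortical granule transport and fusion (12 tested) had 6 below and 6 above 0, with a median of -0.04, and 10 below and 2 above after centring. Padi6, a component of the cytoplasmic lattices, had a log2 fold change of 0.01 and Rab11a, a small GTPase of recycling vesicles, of 0.06. Nsf, the ATPase that recycles SNARE complexes and chosen after its values were seen, averaged 91.6 ± 12.6 RPM over the cKO oocytes (SD, n = 4), against 147 ± 5.55 RPM over the WT oocytes (SD, n = 3). This was -0.69 on the log2 scale (limma adjusted p = 0.0698), and with libraries centred on the median transcript it was -0.84 (adjusted p = 0.0420). It was -0.71 without cKO replicate 4 and WT replicate 3 (limma adjusted p = 0.0367).

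GPI anchor synthesis, on which JUNO depends, had 21 genes tested, 6 log2 fold changes below 0 and 15 above, and a median of 0.30 (9 below, 12 above and 0.15 after centring). The median was 0.08 without cKO replicate 2 and 0.11 without WT replicate 3. The 2 most abundant, Pigf and Pigyl, had log2 fold changes of -0.14 and -0.04. Pigb and Pigp, chosen after their values were seen, were at 0.79 (limma adjusted p = 0.0566) and 1.04 (adjusted p = 0.0926) on the log2 scale, and without cKO replicate 4 and WT replicate 3 Pigp was at 1.06 (adjusted p = 0.0307). Sperm-side partners, whose products act on sperm, summed to 11.3 to 19.5 RPM in the 7 libraries for the 7 genes in the table, with Dcst2 and Zpbp2 the highest (log2 fold changes of 0.71 and 0.11). Of these genes 5 were tested, 2 below and 3 above 0, with a median of 0.11 (-0.05 after centring). Of the granulosa cell markers 7 were tested, 1 below and 6 above 0, with a median of 0.33 (0.18 after centring and 0.21 without cKO replicate 2). The most abundant, Nr5a2 and Cyp19a1, were at 0.44 and 0.22 on the log2 scale. The difference furthest from 0 in this list, picked after its values were seen, was 1.70 for Inha, the inhibin alpha subunit (limma adjusted p = 0.225), and without cKO replicate 4 it was 2.40 (adjusted p = 0.0173). Of the 8 oocyte markers 6 were below 0, with a median of -0.44. With quantile normalisation 5 were below 0 with a median of -0.18, and after centring 7 were with a median of -0.60. Dppa3 and H1f8, the most abundant, had log2 fold changes of 0.01 and -0.39.

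**Figure D4:**
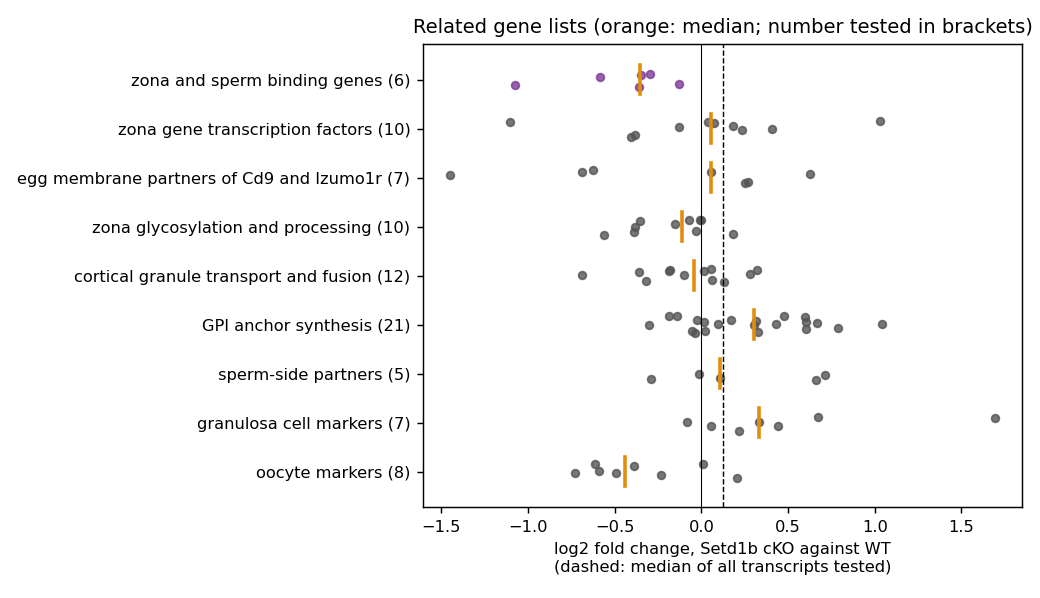
Log2 fold change of each tested gene in Setd1b cKO against WT oocytes (horizontal axis) for the 6 zona and sperm binding genes (purple) and 8 related lists (grey). Orange bars mark the median of each list and the dashed line that of all transcripts tested, 0.12. No gene shown passed the threshold.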

How the data were processed

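Single-cell RNA-seq was analysed in 4 Setd1b cKO and 3 Setd1b WT GV oocytes, grouped by the labels. The authors made cDNA from each oocyte with a SMARTer kit, trimmed reads, mapped them with Hisat to GRCm38, removed hits of low mapping quality and quantified earlier defined oocyte transcripts in SeqMonk. The deposited values are log2 RPM, in which a transcript without reads was set to 0.9 read. Back-transformed to reads, 100% of the others were whole numbers within a relative tolerance of 0.001. A zero count allows up to 0.231 to 0.350 RPM (3 reads), for counting error only, since amplified reads are not independent molecules.

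Transcripts that reached 1 RPM in 3 or more of the libraries were fitted on log2(RPM + 1) by limma 3.58.1 (lmFit, then eBayes with a trend on the mean; R 4.3.3) with genotype as the term. A gene was called at a Benjamini-Hochberg adjusted p under 0.05. Fold changes on the log2(RPM + 1) scale understate those of low genes. Exact permutation tests used scipy 1.17.1. Genes of the related lists were named by the table or, for 18 of them, by GENCODE M21 spans that overlapped by at least 0.5 of the union on the same strand. Lengths came from GENCODE M21. Fits were tested on simulated data.

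Named genes were the 6 members, of each related list the called genes or otherwise the 2 with the highest mean RPM, and the 5 transcripts most like Zp1, Zp2 and Zp3, with others marked in the text as named outside this rule. The members and lists were chosen with earlier results of these data known. Alternatives were other pseudocounts, filters, scalings and moderation settings, voom, a replicate block, and leaving out libraries. The labels name no batch.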

Additional observations from a re-analysis of the deposited data

Results flagged for a closer look

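Part of the named genes and the 15 ratios gave 40 values of the 4 Setd1b cKO libraries. In 0 of them 1 library lay apart by Dixon's criterion, where chance flags about 1 in 20. Setd1b, the granulosa cell markers, Tbpl2, Cd81 and the transcripts most like the zona genes were among the genes not examined. Of these, Amh and Foxl2 each had reads in 1 cKO library only. The 3 WT libraries were too few to examine in this way.

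The share of mapped reads outside the transcripts was higher in every Setd1b cKO library (mean 14.6%, from 13.2% to 16.4%) than in every WT library (9.57% to 9.90%). These reads enter the library totals by which RPM is scaled, and with the reads within transcripts as totals the log2 fold changes were -0.27 for Zp3 and -0.05 for Zp2.

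A transcript of 263 bases on the strand of Izumo1r (chromosome 9, 14897593 to 14897855), used only in the sum over the rows of that gene, had a mean of 0.463 RPM in the cKO, from 0.247 to 0.699 RPM. The WT libraries were at 0, 0.231 and 0 RPM. These are 3, 3, 7 and 6 reads in the cKO and 0, 3 and 0 reads in the WT, at or near the detection limit. Another small transcript on this strand (14893740 to 14894023) went the other way. It had 0 reads in every cKO library and 7, 2 and 1 reads in WT replicates 1 to 3.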

How the results depend on the processing

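Each gene was refitted under 23 alternatives. Zp1, Astl, Izumo1r and Cd9 kept their direction in all of them, and Zp1, Zp2, Zp3, Izumo1r and Cd9 were not called in any. The Zp2 log2 fold change turned to 0.21 and that of Zp3 to 0.20 with quantile normalisation. Over the fits with 1 library left out, Zp2 ran from -0.64 to 0.32 (0.13 in both fits without WT replicate 1 or 2), Zp3 from -0.40 to -0.30, Zp1 from -0.86 to -0.30, Izumo1r from -0.35 to -0.20 and Cd9 from -0.50 to -0.23. Astl was called, so that 1 gene was lower in place of 0, with library quality weights (log2 fold change -1.05, adjusted p = 0.0306) and without cKO replicate 4 and WT replicate 3 (-1.14, adjusted p = 0.0113). Its log2 fold change ran from -1.34 to -0.73 and its adjusted p from 0.0113 to 0.305 over the alternatives. Deviations of same-numbered oocytes correlated at 0.19, 0.29 and -0.13, so the numbers were not taken as pairs. With the replicate number as a block, in which the unpaired cKO replicate 4 has no weight, 1 gene was called, Astl (-0.87, adjusted p = 0.0251), Zp2 was at 0.32, and 711 transcripts were lower and 1118 higher, against 399 and 719 without the block and 519 and 920 (Astl adjusted p = 0.104) in the fit of the same 6 libraries without it. Not every oocyte correlated best with its own number.

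Other counts of lower and higher transcripts were 193 and 234 with no filter, 840 and 1485 with library quality weights, and 741 and 1181 without cKO replicate 4 and WT replicate 3. They were 117 to 519 and 172 to 920 with 1 library left out. Higher transcripts numbered 471 after centring, 450 with quantile normalisation and 462 with voom. After centring 592 transcripts were lower, and the median log2 fold change of all transcripts went from 0.12 to -0.03. In the related lists 0 genes were called as reported, and the calls under alternatives were Cd55, Itga9, Nsf, Oosp1 and Zar1 (lower) and Inha, Pigb, Pigp and Taf4b (higher), each in 1 to 5 alternatives. With 1 library left out a list had 0 to 1 call, all without cKO replicate 4 (Taf4b, Inha, Oosp1). Elsewhere lists with a call had 1 or 2, with quality weights, the block, reads within transcripts, other filters, centring, the median of ratios or without both libraries. Differences of log2 ratios between genotypes changed sign with 1 library left out for Zp1/Zp3 (-0.53 to 0.10), Zp1/Izumo1r (-0.66 to 0.049), Zp2/Zp3 (-0.31 to 0.72), Zp2/Izumo1r (-0.45 to 0.67), Zp2/Cd9 (-0.22 to 0.55), Zp3/Izumo1r (-0.14 to 0.00035), Zp3/Cd9 (-0.17 to 0.20) and Izumo1r/Cd9 (-0.12 to 0.24), and in none with 1 RPM added. By the longest transcript, levels per kb were 152 and 187 RPM for Izumo1r and 250 and 315 RPM for Cd9 in the cKO and WT. The cause of these shifts was not tested. The planned quasi-likelihood and negative binomial count models were not run, and voom on the reads recovered from the log2 values was the count-based fit. Every value of the 6 genes rests on 388 reads or more, and how much of the spread between libraries is technical was not tested.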
